A study of Mus musculus with 18 samples.

Results

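The Zfp genes are mouse zinc finger protein genes whose symbol is Zfp followed by a number. Those expressed in the embryonic cerebral cortex were chosen by a mean RNA level of at least 2 FPKM (fragments per kilobase of transcript, scaled to the depth of the library) over the 3 control RNA-seq libraries. This rule kept 261 of the 374 genes with such a symbol, out of 55153 genes in the RNA-seq tables. RNA-seq and Ribo-seq, which sequences the RNA fragments that ribosomes protect (footprints), were made from cerebral cortices at embryonic day 15.5 (E15.5). Each of 3 groups has 3 libraries of both kinds, which makes 18. Control mice (Ctrl) were wild type. *F*-cKO mice carried floxed *Fto*, which encodes an m6A demethylase, and *M*-cKO mice carried floxed *Mettl3*, which encodes the catalytic subunit of the m6A methyltransferase, and both were deleted by Cre driven from the *Emx1* promoter. The strain is given as C57BL/6, the floxed lines had a mixed 129 background, and Cre was active in cells of the *Emx1* lineage and not in every cell of the dissected tissue. The labels call the replicates biological repeats and do not say whether tissue was pooled or how litters were shared, and the wording of the methods may mean that the Ribo-seq cortices came from a single litter, so p-values measure the spread between these libraries.

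Most Zfp proteins bind DNA through tandem C2H2 zinc fingers. Many of them also carry a KRAB domain, which recruits the corepressor Trim28 and, through it, the histone methyltransferase Setdb1, and these KRAB zinc finger proteins are known for silencing retroelements and protecting imprints. KRAB zinc finger genes multiplied by local duplication and lie in clusters, whereas conserved members without KRAB, such as *Zfp423*, *Zfp462* and *Zfp521*, act in the development of the nervous system. Near-identical neighbours can share reads, and how the authors' counting treated such reads is not stated, so values of clustered members are uncertain. The strand setting of the counting is not stated either, and the span of 91 of 260 members with a RefSeq position overlaps another gene, as do 34 of the 86 members called in *M*-cKO RNA below.

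Total counts ranged from 18504094 to 22592406 in RNA-seq and from 10973699 to 35853227 in Ribo-seq, and the Zfp members took 1.24% to 1.39% of RNA reads and 0.913% to 1.09% of footprints. *Fto* RNA was 3.26, 7.56 and 2.43 FPKM in *F*-cKO libraries 1 to 3 and 8.37 to 11.2 FPKM in Ctrl, so *F*-cKO RNA library 2 was close to Ctrl. *Fto* footprints were 3.91, 2.11 and 4.04 RPKM in *F*-cKO Ribo-seq libraries 1 to 3, against 17.6 to 25.9 RPKM in Ctrl. *Mettl3* counted over the whole gene was higher in *M*-cKO RNA (7.82 to 8.61 FPKM) than in Ctrl (5.07 to 6.43 FPKM) and lower in *M*-cKO footprints (6.02 to 6.78 RPKM, against 9.16 to 9.93 RPKM), a count that also covers the exons left in place. Ctrl RNA library 3 had less *Emx1* (16.8 FPKM) than the other Ctrl libraries (30.1 and 31.7 FPKM). Excitatory cortical neuron markers, the check of the tissue label, summed to 1840 to 2205 FPKM over 8 genes in the 9 libraries, and no gene of any marker list was at 0 in a whole group. Summed markers of the ganglionic eminence and interneurons were 124 to 166 FPKM in *M*-cKO, 84.0 to 117 FPKM in *F*-cKO and 87.7 to 89.4 FPKM in Ctrl, and 8 of these 8 markers were called higher in *M*-cKO RNA and 5 in its footprints. Radial glia markers summed to 560 to 602 FPKM in *M*-cKO, 721 to 783 FPKM in *F*-cKO and 762 to 851 FPKM in Ctrl. In *M*-cKO 3 of the 8 were called higher (*Sox2*, *Hes1*, *Hes5*) and 2 lower (*Fabp7*, *Slc1a3*), with a median log2 fold change of 0.12, and in *F*-cKO 4 were called higher (*Vim*, *Nes*, *Sox2*, *Pax6*) and the same 2 lower, with a median of 0.43. Intermediate progenitor markers summed to 162 to 259 FPKM in Ctrl, with the lowest value in Ctrl library 3, to 305 to 364 FPKM in *F*-cKO and to 289 to 328 FPKM in *M*-cKO. Of these 6 markers, 5 were called higher in *F*-cKO RNA (median 0.69), 3 in *M*-cKO RNA (median 0.51) and 0 lower in either. Erythroid markers summed to 337 to 650 FPKM in Ctrl, 260 to 339 FPKM in *F*-cKO and 362 to 548 FPKM in *M*-cKO, with 4 of 6 called higher in *M*-cKO than in *F*-cKO. Meningeal markers summed to 2.35 to 8.98 FPKM in *F*-cKO, 10.5 to 20.3 FPKM in Ctrl and 5.32 to 28.6 FPKM in *M*-cKO, with *Col1a1* and *Col1a2* of 5 called lower in *F*-cKO, and endothelial markers to 35.2 to 40.5 FPKM, 48.7 to 53.7 FPKM and 39.4 to 53.3 FPKM in the same groups, with *Cldn5* and *Esam* of 6 called lower in *F*-cKO. Choroid plexus markers varied widely within Ctrl, with 70.1, 801 and 315 FPKM in Ctrl libraries 1 to 3, 273 to 391 FPKM in *F*-cKO and 434 to 592 FPKM in *M*-cKO. In footprints *F*-cKO Ribo-seq library 2 stood apart, with endothelial markers at 72.5 RPKM against 4.46 to 9.01 RPKM in the other 8 libraries and excitatory neuron markers at 1758 RPKM against 3356 to 4220 RPKM. Without this library edgeR called 0 members in *F*-cKO footprints, in footprints between the knockouts and in both TE comparisons that use it, as with it. The part of these differences in the results on Zfp genes was not tested, and in bulk tissue fewer cells of a type and less RNA per cell cannot be told apart.

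The promoters of 4 members, picked after their values were seen, are examples of windows that differ in CpG among members called in both assays. *Zfp423* and *Zfp777* were higher in *M*-cKO in both assays, and *Zfp950* and *Zfp946* were lower in both. The lines give the 250 bases before a RefSeq transcript start in assembly GRCm38.p6, 5′ to 3′ on the gene's strand, with CpG dinucleotides in capitals. They were read from chr8:87959596-87959845 (minus strand) for *Zfp423*, chr6:48047795-48048044 (minus strand) for *Zfp777*, chr19:61140841-61141090 (minus strand) for *Zfp950* and chr17:22423952-22424201 (plus strand) for *Zfp946*.
Zfp423: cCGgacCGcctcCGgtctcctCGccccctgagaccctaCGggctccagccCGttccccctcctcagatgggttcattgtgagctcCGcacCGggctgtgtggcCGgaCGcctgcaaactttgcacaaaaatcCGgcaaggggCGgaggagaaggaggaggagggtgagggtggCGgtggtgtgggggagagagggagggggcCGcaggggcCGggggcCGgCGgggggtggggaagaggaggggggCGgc
Zfp777: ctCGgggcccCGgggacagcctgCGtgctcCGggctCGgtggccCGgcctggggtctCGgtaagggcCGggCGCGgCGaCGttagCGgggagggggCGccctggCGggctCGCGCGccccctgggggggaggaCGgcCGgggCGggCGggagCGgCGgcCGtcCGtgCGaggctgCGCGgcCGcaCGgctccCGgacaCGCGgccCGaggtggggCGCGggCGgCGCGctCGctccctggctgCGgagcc
Zfp950: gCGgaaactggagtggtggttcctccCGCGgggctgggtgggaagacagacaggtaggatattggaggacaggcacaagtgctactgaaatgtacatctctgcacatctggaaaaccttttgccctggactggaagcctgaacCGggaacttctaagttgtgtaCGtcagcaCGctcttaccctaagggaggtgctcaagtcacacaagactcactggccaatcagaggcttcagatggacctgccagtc
Zfp946: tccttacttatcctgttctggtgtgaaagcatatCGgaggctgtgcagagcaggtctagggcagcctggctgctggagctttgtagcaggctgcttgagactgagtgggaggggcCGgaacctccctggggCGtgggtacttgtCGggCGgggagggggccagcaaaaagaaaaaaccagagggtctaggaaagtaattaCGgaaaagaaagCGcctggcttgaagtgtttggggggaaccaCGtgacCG
The windows hold 18 CpG in *Zfp423* and 42 in *Zfp777*, against 6 in *Zfp950* and 9 in *Zfp946*.

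In Ctrl cortex the median level of the members was 6.55 FPKM, with quartiles of 4.08 and 11.1 FPKM, beside a median of 9.21 FPKM and quartiles of 4.58 and 20.2 FPKM for all 11430 genes with at least 2 FPKM, and 78 members reached 10 FPKM. These values chose the members and are a description. *Zfp57*, a KRAB zinc finger gene that protects imprinted methylation, was the most abundant at 99.0 ± 7.45 FPKM (SD, n = 3), followed by *Zfp428* at 81.0 ± 2.53 FPKM. *Zfp706*, *Zfp740*, *Zfp445* and *Zfp207* followed at 48.6 ± 0.849, 37.1 ± 2.76, 35.9 ± 3.22 and 35.4 ± 0.0821 FPKM, and the last 3 of these lie within their spread of each other. *Zfp445* is the second known imprint-protecting member, and *Zfp207* encodes BuGZ, a spindle checkpoint protein that binds Bub3. Just inside the limit of 2 FPKM were *Zfp277* (2.02 FPKM), *Zfp974* (2.02 FPKM) and *Zfp536* (2.09 FPKM). Just outside it were *Zfp970* (1.99 FPKM), *Zfp994* (1.95 FPKM) and *Zfp108* (1.93 FPKM).

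The median footprint level of the members in Ctrl was 5.47 RPKM (the same scale, counted in reads), and no member lacked footprints. The ratio of mean RPKM to mean FPKM in Ctrl, a measure of translation efficiency (TE), had a median of 0.824 over members and 0.763 over the 11372 genes with at least 2 FPKM and a Ribo-seq value. It ranged from 0.140 in *Zfp523*, 0.148 in *Zfp706* and 0.149 in *Zfp408* to 2.86 in *Zfp84*, 3.26 in *Zfp638* and 4.18 in *Zfp382*. The ratio of *Zfp706* was thus far below that of *Zfp207*, at 1.35, although their RNA levels were of like size. The ratio was not corrected here for the coding share of a transcript. Differences in it between genes therefore need not be differences in translation. These 6 extremes were chosen after their values were seen.

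More Zfp members were called after deletion of *Mettl3* than after deletion of *Fto* in RNA, as were more genes in all. Footprint calls were made only in *M*-cKO against Ctrl, for members and for all genes alike. The direct comparison of footprints between the knockouts, given below, called no member. A gene was called when its adjusted p from edgeR's quasi-likelihood test, fitted over all genes, was below 0.05, and all 261 members could be tested in every comparison. In *M*-cKO RNA, 56 members were higher than in Ctrl (21.5%), beside 15.5% of all 16968 genes tested, and 30 were lower (11.5%), beside 14.1% of all genes. In *F*-cKO RNA, 46 members were higher (17.6%), beside 11.5% of all 16944 genes tested, and 6 were lower (2.30%), beside 9.57% of all genes. Most changes were small, with 6 of the called members past 2-fold in *M*-cKO RNA and 1 in *F*-cKO RNA. The median log2 fold change of the members was 0.001 in *M*-cKO and 0.05 in *F*-cKO, beside -0.01 over all genes tested in each. Single libraries moved both medians, to 0.06 without *M*-cKO RNA library 3 and -0.02 without *M*-cKO RNA library 1, and to 0.09 and 0.03 without *F*-cKO RNA libraries 1 and 2. Both comparisons use the Ctrl libraries that also chose the members, and with members chosen by the mean of all 9 RNA-seq libraries the counts were within 1.5 times of these.

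**Figure D1:**
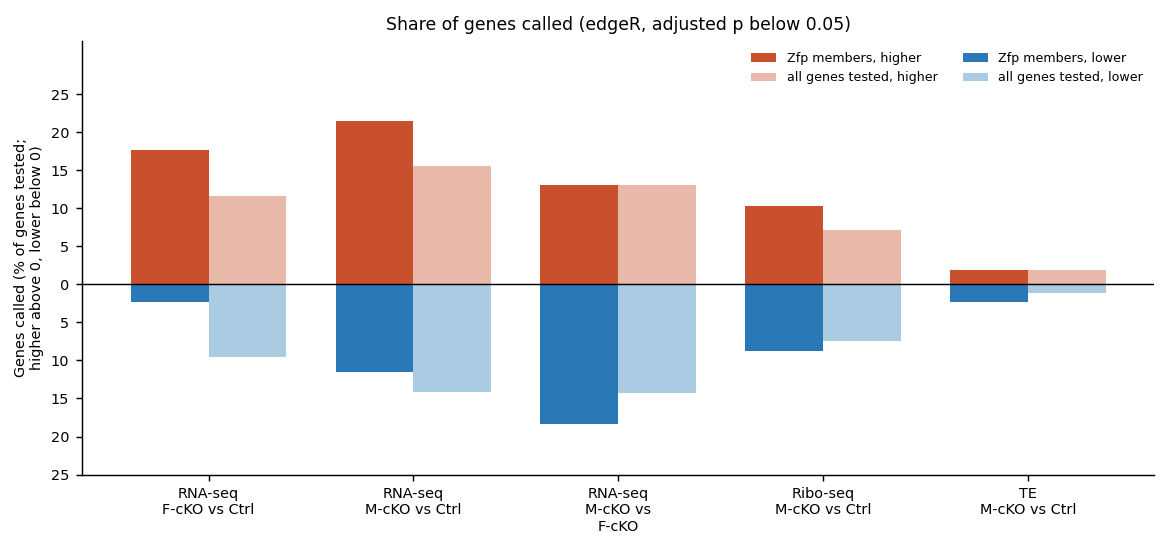
Share of Zfp members (dark bars) and of all genes tested (light bars) that edgeR called higher (above 0) or lower (below 0), in percent, for the 5 comparisons in which any gene was called. In *F*-cKO RNA the members were called higher in 17.6% and lower in 2.30%, whereas all genes were called higher in 11.5% and lower in 9.57%.

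Fewer members were called in *F*-cKO RNA without particular libraries, as were fewer genes in all. Without Ctrl RNA library 3, 22 members were higher (beside 5.69% of all genes), without *F*-cKO RNA library 2 there were 24 (beside 6.62%), and without both, a choice made after seeing the data, there were 7 higher (beside 1.06%) and 0 lower (beside 0.404%). Over these fits and those that leave out another library, the log2 fold change lay between 0.38 and 0.47 for *Zfp146*, 0.45 and 0.55 for *Zfp462* and 0.47 and 0.65 for *Zfp618*. *Zfp146* and *Zfp618* lost their call in the fit without both libraries, and *Zfp462* kept it in every fit. The lower count of 6 was 3 without Ctrl library 1, 2 without Ctrl library 3 and 1 without *F*-cKO library 2, beside 5.49%, 3.23% and 4.68% of all genes. In *M*-cKO RNA the 30 lower members were 19 without Ctrl library 3 and 19 without *M*-cKO library 2, beside 8.65% and 9.69% of all genes, whereas the higher count ranged from 45 to 59.

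Among members higher in *M*-cKO RNA, *Zfp423* had the smallest p. It encodes a multi-finger partner of Smad and Ebf proteins that is needed for cerebellar and midline development. Its RNA was 6.02, 6.85 and 5.68 FPKM in Ctrl, 8.03, 8.02 and 7.71 FPKM in *F*-cKO and 12.8, 12.9 and 12.8 FPKM in *M*-cKO, so the 3 groups did not overlap. The log2 fold change in *M*-cKO was 1.05 ± 0.08 (SE; edgeR adjusted p = 1.67e-05), and in *F*-cKO it was 0.35 ± 0.08 (adjusted p = 0.0188). Its footprints were 8.22, 8.03 and 8.68 RPKM in Ctrl and 18.4, 15.2 and 15.1 RPKM in *M*-cKO. Every *M*-cKO footprint library lay above every Ctrl library, and the log2 fold change was 0.97 ± 0.10 (adjusted p = 0.00468). The *F*-cKO footprint libraries, at 11.0, 13.9 and 7.70 RPKM, overlapped Ctrl.

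*Zfp703*, which encodes a corepressor that binds Groucho proteins, followed the same order. Its RNA was 13.1, 14.3 and 10.9 FPKM in Ctrl and 25.3, 24.1 and 25.1 FPKM in *M*-cKO, a log2 fold change of 0.95 ± 0.09 (edgeR adjusted p = 4.89e-05). Its footprints were 5.84, 5.97 and 6.20 RPKM in Ctrl and 15.6, 18.6 and 11.7 RPKM in *M*-cKO, with no overlap between the groups. The footprint log2 fold change was 1.37 ± 0.19 (adjusted p = 0.00926). That call was lost without Ctrl Ribo-seq library 2.

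*Zfp768* separated the 2 knockouts. Its RNA was 11.1, 12.5 and 11.9 FPKM in Ctrl, 12.6, 12 and 11.6 FPKM in *F*-cKO and 21.7, 20.0 and 23.0 FPKM in *M*-cKO. Ctrl and *F*-cKO overlapped and *M*-cKO lay above both, with a log2 fold change of 0.86 ± 0.08 against Ctrl (edgeR adjusted p = 5.45e-05) and 0.83 ± 0.08 against *F*-cKO (adjusted p = 0.000109). *Zfp628* was 6.75 to 7.0 FPKM in Ctrl, 7.17 to 7.76 FPKM in *F*-cKO and 11.7 to 12 FPKM in *M*-cKO, so its groups did not overlap, and its *F*-cKO change of 0.11 was not called. Its log2 fold change was 0.77 ± 0.07 against Ctrl (adjusted p = 5.31e-05), and its span overlaps *Nat14* and *Gm51297* in RefSeq.

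*Zfp618*, *Zfp516*, *Zfp521* and *Zfp536* were higher in the RNA of both knockouts. *Zfp618*, which encodes a protein that binds Uhrf2, was 3.25, 3.50 and 2.87 FPKM in Ctrl, 4.84, 5.06 and 4.56 FPKM in *F*-cKO and 7.58, 7.26 and 5.78 FPKM in *M*-cKO. *Zfp536*, which encodes a repressor of neuronal differentiation, was 2.13, 2.19 and 1.94 FPKM in Ctrl, 3.27, 3.60 and 3.67 FPKM in *F*-cKO and 4.54, 3.86 and 3.80 FPKM in *M*-cKO. In each gene every knockout library lay above every Ctrl library. The log2 fold changes in *F*-cKO and *M*-cKO, which share the Ctrl libraries, were 0.58 and 1.09 for *Zfp618*, 0.78 and 1.08 for *Zfp516*, 1.01 and 1.04 for *Zfp521* and 0.74 and 0.95 for *Zfp536*. Ctrl library 3 was the lowest Ctrl library in each of the 4. The other members with the smallest p in *F*-cKO RNA were *Zfp462*, *Zfp609*, *Zfp687*, *Zfp146* and *Zfp41*, higher by 0.42 to 0.56 on the log2 scale. *Zfp521*, a close relative of *Zfp423* known for driving neural differentiation, reached only 3.02 FPKM in that library and 4.36 and 5.47 FPKM in the others.

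**Figure D2:**
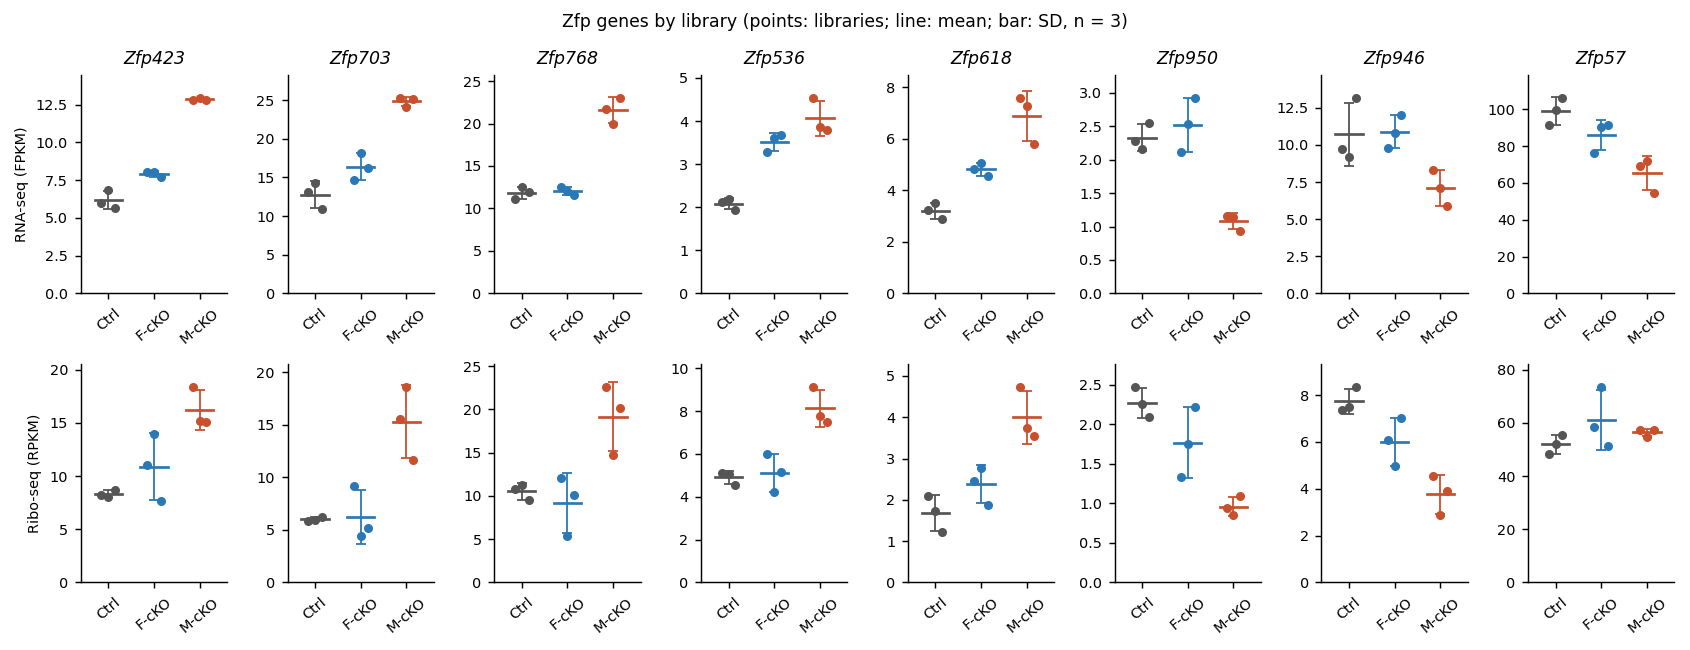
RNA-seq levels (FPKM, top) and Ribo-seq levels (RPKM, bottom) of 8 members in Ctrl, *F*-cKO and *M*-cKO, with 1 point per library, the mean as a line and the SD (n = 3) as a bar. For *Zfp423* the *M*-cKO libraries lie at 12.8 to 12.9 FPKM above all others, for *Zfp950* they lie below all others, and for *Zfp57* the *M*-cKO RNA is lowest while its footprints are not.

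Of the members lower in *M*-cKO RNA, *Zfp950* had the smallest p. Its RNA was 2.27, 2.15 and 2.55 FPKM in Ctrl, 2.11, 2.53 and 2.92 FPKM in *F*-cKO and 1.16, 1.14 and 0.937 FPKM in *M*-cKO. The *M*-cKO libraries lay below all others, while *F*-cKO overlapped Ctrl. The log2 fold change was -1.12 ± 0.11 against Ctrl (edgeR adjusted p = 7.48e-05) and -1.24 ± 0.14 against *F*-cKO (adjusted p = 0.000308). The Ctrl values in the first of these also chose *Zfp950* as a member, near the limit of 2 FPKM. By the mean of all 9 RNA-seq libraries *Zfp950* would fall below that limit. The comparison with *F*-cKO does not use the Ctrl libraries. The footprints of *Zfp950* were 2.47, 2.26 and 2.09 RPKM in Ctrl and 0.938, 0.853 and 1.09 RPKM in *M*-cKO, a log2 fold change of -1.23 ± 0.14 (adjusted p = 0.00504). The span of *Zfp950* overlaps *Grk5* and *Gm4238* in RefSeq.

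*Zfp182*, on chromosome X, was 2.75, 2.80 and 3.51 FPKM in Ctrl and 1.56, 1.56 and 1.18 FPKM in *M*-cKO, a log2 fold change of -1.08 ± 0.15 (edgeR adjusted p = 0.000383). Its footprints were 1.64, 1.66 and 2.07 RPKM in Ctrl and 1.56, 1.29 and 1.09 RPKM in *M*-cKO, with a log2 fold change of -0.43 that was not called (adjusted p = 0.159). *Zfp157*, *Zfp661*, *Zfp420* and *Zfp263* were lower in *M*-cKO RNA by 0.31 to 0.58 on the log2 scale. Of these, *Zfp420* was also lower in *F*-cKO RNA, at 3.98, 3.89 and 3.91 FPKM against 5.41, 5.28 and 5.56 FPKM in Ctrl, and it had the smallest p of the 6 members lower there. The other 5 were *Zfp637*, *Zfp641*, *Zfp706*, *Zfp956* and *Zfp692*, with log2 fold changes of -0.23 to -0.52.

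Direct comparison of the knockouts, which uses no library that chose the members, gave 34 members higher in *M*-cKO than in *F*-cKO (13%), beside 13.1% of all 16802 genes tested, and 48 lower (18.4%), beside 14.3% of all genes. *Zfp423*, *Zfp768*, *Zfp628*, *Zfp553*, *Zfp467*, *Zfp777*, *Zfp703* and *Zfp697* had the smallest p among the higher members. *Zfp950*, *Zfp182*, *Zfp462*, *Zfp599*, *Zfp207*, *Zfp157*, *Zfp142* and *Zfp661* had the smallest p among the lower ones. *Zfp599* was 3.82, 3.83 and 4.52 FPKM in *F*-cKO and 2.06, 2.27 and 1.78 FPKM in *M*-cKO, on either side of Ctrl at 2.31 to 3.02 FPKM. Its difference was -1.0 ± 0.14 (edgeR adjusted p = 0.00087), and its span overlaps that of *Zfp809*. *Zfp462*, a regulator of heterochromatin that is mutated in a neurodevelopmental syndrome, was 44.2, 42.0 and 43.1 FPKM in *F*-cKO and 32.6, 30.9 and 29.8 FPKM in *M*-cKO, the latter overlapping Ctrl at 27.6 to 31.6 FPKM. The lower count fell from 48 to 23 without *F*-cKO RNA library 2 and to 28 without *M*-cKO RNA library 3. The share of all genes lower fell as well, from 14.3% to 7.70% and 9.54%.

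In footprints, 27 members were higher in *M*-cKO than in Ctrl (10.3%), beside 7.13% of all 14314 genes tested, and 23 were lower (8.81%), beside 7.5% of all genes. Of the 27 members higher in footprints, 21 were also called higher in RNA, which is 77.8% of the footprint list and 37.5% of the RNA list. Over all 13208 genes tested in both assays these shares were 71.6% and 23.7%. The 21 included *Zfp37*, *Zfp423*, *Zfp703*, *Zfp536*, *Zfp521*, *Zfp516*, *Zfp618*, *Zfp768*, *Zfp628*, *Zfp777*, *Zfp467*, *Zfp219* and *Zfp24*. Of the 23 members lower in footprints, 10 were also called lower in RNA (43.5% and 33.3% of the lists, beside 47.9% and 25% over all genes), namely *Zfp40*, *Zfp157*, *Zfp420*, *Zfp560*, *Zfp846*, *Zfp938*, *Zfp944*, *Zfp946*, *Zfp950* and *Zfp983*. *Zfp260*, at -0.61, was called lower in footprints only. Across the 261 members, which are not independent replicates, the log2 fold changes in RNA and footprints had a Pearson correlation of 0.656.

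Fewer members were called when any Ctrl footprint library was left out. Without Ctrl Ribo-seq libraries 1, 2 and 3, 6, 1 and 6 members were called higher, beside 1.61%, 0.804% and 1.88% of all genes, and 4, 1 and 2 lower, beside 1.1%, 0.433% and 1.34%. Without *M*-cKO libraries 1 and 2 there were 8 and 13 lower members, beside 2.65% and 3.66% of all genes. Without *M*-cKO library 1 there were 13 higher, beside 3.49%. *Zfp423* and *Zfp950* kept their footprint call with each of the 6 libraries left out. In a fit of all 9 Ribo-seq libraries, whose *F*-cKO group had a wider spread, edgeR called 0 members in *M*-cKO, beside 0.202% of all genes higher and 0.0419% lower. In that fit 36 members were higher and 29 lower at an unadjusted p below 0.05, a limit for which no share of all genes is given here.

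*Zfp946* was lower in both assays, and its TE change, at -0.36, was not called. Its RNA was 9.76, 9.19 and 13.2 FPKM in Ctrl and 8.31, 7.07 and 5.91 FPKM in *M*-cKO (log2 fold change -0.60 ± 0.15, edgeR adjusted p = 0.0108). Its footprints were 7.35, 7.51 and 8.35 RPKM in Ctrl and 4.54, 2.87 and 3.88 RPKM in *M*-cKO (log2 fold change -1.03 ± 0.16, adjusted p = 0.0122). No *M*-cKO library overlapped Ctrl in either assay, and the footprint call was lost without Ctrl library 2 or 3.

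**Figure D3:**
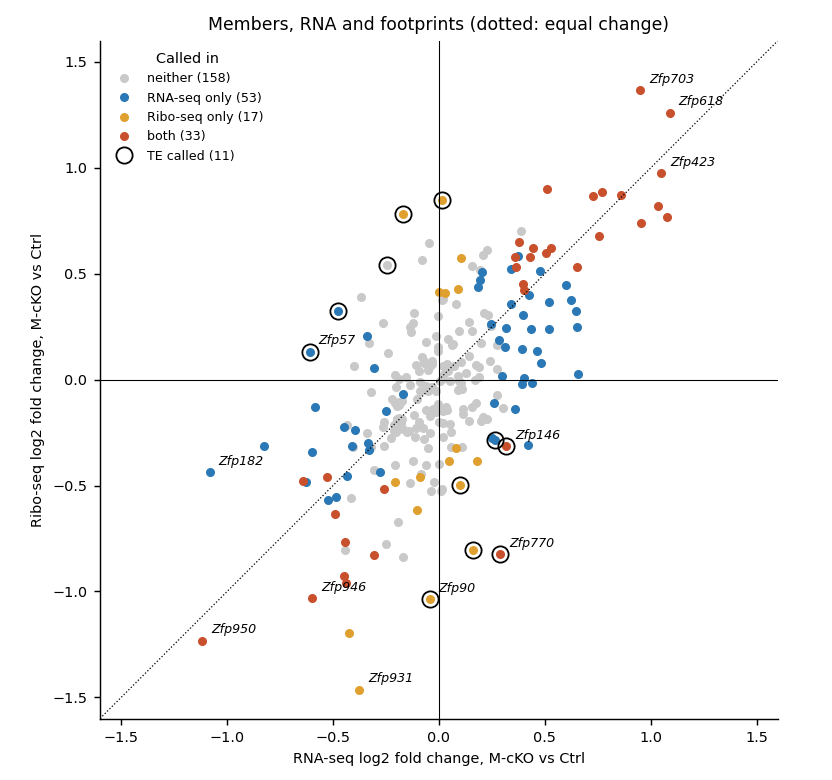
Log2 fold change of each of the 261 members in *M*-cKO against Ctrl in RNA-seq (horizontal) and Ribo-seq (vertical), coloured by the assay in which edgeR called it, with black rings around the 11 members called for TE. The 33 members called in both assays lie mostly at the upper right and lower left, and *Zfp770* and *Zfp146* lie to the right of 0 in RNA and below 0 in footprints.

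In *F*-cKO footprints edgeR called 0 of 261 members and 0% of all 14335 genes tested, and DESeq2 called 0 members. At an unadjusted p below 0.05, 0 members were higher, beside 1.58% of all genes, and 3 were lower, beside 0.635% of all genes. The 3 lower were *Zfp141*, *Zfp706* and *Zfp41*, with log2 fold changes of -0.48, -0.76 and -0.35. *Zfp521*, *Zfp446* and *Zfp334* had the smallest p among those above 0, at 0.78, 0.41 and 0.33, and were not called. The *F*-cKO footprint libraries varied widely, with 9.75, 9.92 and 4.29 RPKM for *Zfp521*, and library 2 was the shallowest of the 18. Between the knockouts, edgeR also called 0 members and 0% of all 14262 genes in footprints, while DESeq2 called 4 members higher and 0 lower in *M*-cKO. At an unadjusted p below 0.05, 20 members were higher, beside 4.98% of all genes, and 6 were lower, beside 3.11% of all genes. *Zfp703*, *Zfp536* and *Zfp316* led the first group and *Zfp157*, *Zfp950* and *Zfp946* the second, and the adjusted p of these 6 was 0.522 or more.

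TE was tested as the interaction of assay and genotype over 12 libraries. In *M*-cKO, 5 members had higher TE than in Ctrl (1.92%), beside 1.89% of all 13208 genes tested, and 6 had lower TE (2.30%), beside 1.18% of all genes. *Zfp653*, *Zfp57*, *Zfp408*, *Zfp692* and *Zfp948* were higher, by 1.02, 0.81, 0.91, 0.85 and 0.87 on the log2 scale. *Zfp770*, *Zfp90*, *Zfp41*, *Zfp146*, *Zfp451* and *Zfp251* were lower, at -1.04, -0.92, -0.90, -0.56, -0.53 and -0.48. The higher count was 9 and 8 without Ribo-seq libraries Ctrl 3 and *M*-cKO 3, beside 2.82% and 4.33% of all genes. It was 3 without Ribo-seq library Ctrl 1 or 2, beside 1.11% and 0.583%. It was also 3 without any 1 of the 6 RNA-seq libraries, beside 0.347% to 0.816%. The lower count was 13 and 2 without Ribo-seq libraries *M*-cKO 3 and Ctrl 2, beside 3.64% and 0.265% of all genes. It was 3, 2 and 1 without RNA-seq libraries Ctrl 1 to 3, beside 0.446%, 0.249% and 0.166%. Without RNA-seq libraries *M*-cKO 1 and 2 it was 1 and 3, beside 0.143% and 0.438%. The calls of *Zfp653*, *Zfp57*, *Zfp408* and *Zfp770* held with each of the 12 libraries left out, and with the RNA and Ribo libraries of a genotype paired by number, a block added after seeing the data, 5 members were higher and 5 lower, and *Zfp251* was not called (-0.48, edgeR adjusted p = 0.0645). In a fit of all 18 libraries edgeR called 0 members, beside 0.0603% of all genes higher and 0.0226% lower. In that fit 23 members were higher and 14 lower at an unadjusted p below 0.05, a limit for which no share of all genes is given here.

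The members called for TE moved in different ways. *Zfp57* fell in RNA and not in footprints. Its RNA was 91.3, 99.6 and 106 FPKM in Ctrl and 69.1, 71.9 and 54.7 FPKM in *M*-cKO (log2 fold change -0.61 ± 0.10, edgeR adjusted p = 0.00104), whereas its footprints were 48.2, 52.0 and 55.4 RPKM in Ctrl and 57.2, 54.7 and 57.2 RPKM in *M*-cKO (0.13 ± 0.09, adjusted p = 0.312). *Zfp948* had a like pattern, with -0.48 in RNA, called, and 0.32 in footprints, not called. *Zfp653* and *Zfp408* were called higher in footprints only: *Zfp408* was 7.84 to 9.07 FPKM in Ctrl and 8.18 to 8.95 FPKM in *M*-cKO RNA, and 1.15, 1.22 and 1.44 RPKM in Ctrl and 2.48, 2.16 and 2.18 RPKM in *M*-cKO footprints.

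*Zfp770* and *Zfp146* were called higher in RNA and lower in footprints. *Zfp770* was 4.30, 3.89 and 4.07 FPKM in Ctrl and 5.14, 5.28 and 4.66 FPKM in *M*-cKO RNA. Its footprints were 6.43, 6.78 and 6.93 RPKM in Ctrl and 4.18, 2.69 and 4.44 RPKM in *M*-cKO. The groups did not overlap in either assay, and the log2 fold changes were 0.29 ± 0.08 in RNA (edgeR adjusted p = 0.0219) and -0.83 ± 0.16 in footprints (adjusted p = 0.0215). *Zfp90*, a KRAB protein that binds the neuronal repressor Rest, and *Zfp451*, a SUMO ligase, were called lower in footprints only, *Zfp90* at 6.24, 5.07 and 4.38 RPKM in Ctrl and 2.52, 2.23 and 2.84 RPKM in *M*-cKO.

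In *F*-cKO edgeR called 0 members and 0% of all 13225 genes for TE, and DESeq2 called 0 higher and 1 lower. At an unadjusted p below 0.05, 3 members were higher, beside 3.11% of all genes, and 22 were lower, beside 6.18% of all genes. *Zfp41*, *Zfp146* and *Zfp536* led the lower members at -0.91, -0.63 and -0.69 (adjusted p = 0.372 each), and *Zfp1*, *Zfp651* and *Zfp653* the higher ones at 0.58, 0.48 and 0.63. The TE change was below 0 in 191 of 261 members, with a median of -0.15, beside -0.01 over all genes tested. Without *F*-cKO Ribo-seq library 2 it was below 0 in 155, with a median of -0.05, beside -0.01 over all genes, and without *F*-cKO Ribo-seq library 1 in 206, with a median of -0.25, beside -0.07. In the same fit as the first of these medians, marker genes had median TE changes of 2.15 for endothelium, 1.62 for meninges, 0.77 for microglia and 0.12 for erythroid cells. The medians of the other marker lists were below 0. They were -0.14 for radial glia, -0.40 for intermediate progenitors, -0.32 for excitatory neurons, -0.35 for ganglionic eminence and interneurons and -0.50 for choroid plexus. Of all these markers 0 were called, and their part in the shift was not tested. Between the knockouts edgeR called 0 members and 0% of all 13162 genes for TE, and DESeq2 called 1 higher and 0 lower. At an unadjusted p below 0.05, 17 members were higher, beside 2.44% of all genes, and 0 were lower, beside 1.67% of all genes. Here the TE change was above 0 in 193 of 261 members, with a median of 0.16, beside 0.004 over all genes tested. *Zfp142*, *Zfp661* and *Zfp275* had the smallest p among those above 0, at 0.82, 0.73 and 0.48, and *Zfp59*, *Zfp931* and *Zfp707* among those below 0, at -0.57, -1.08 and -0.27.

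Members with known roles in brain development were mostly higher in RNA. This list and the other role lists were chosen with earlier results of these data known, so their counts are a description and not a test. Of 11 such members, 9 were higher and 0 lower in *F*-cKO RNA, with a median log2 fold change of 0.35, and 8 were higher and 0 lower in *M*-cKO RNA, with a median of 0.46. Over all genes tested the medians were -0.01 in each comparison, and 11.5% were higher in *F*-cKO RNA and 15.5% in *M*-cKO RNA. *Zfp609*, a Nipbl partner needed for the migration of cortical neurons, was 16.8, 16.1 and 14.7 FPKM in Ctrl, 22.4, 21.6 and 22.6 FPKM in *F*-cKO and 22.0, 22.2 and 21.6 FPKM in *M*-cKO. Its relative *Zfp608* rose by 0.33 and 0.29 on the log2 scale, *Zfp292*, mutated in a neurodevelopmental disorder, by 0.41 and 0.65, and *Zfp24*, needed for myelination, by 0.27 and 0.36. *Zfp335*, a microcephaly gene, had values of 0.07 and 0.01, and *Zfp704* of 0.00 and 0.04, none of them called. In *M*-cKO footprints 5 of the 11 were higher, beside 7.13% of all genes, and 0 lower, namely *Zfp24*, *Zfp423*, *Zfp521*, *Zfp703* and *Zfp536*, and *Zfp609* had a log2 fold change of 0.14, not called. The count of 9 in *F*-cKO RNA was 5 without Ctrl RNA library 3, 5 without *F*-cKO RNA library 2 and 4 without both, and the footprint count was 3, 1 and 3 without Ctrl Ribo-seq libraries 1 to 3.

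The 4 members that silence imprints or retroelements did not move as a group. *Zfp57* and *Zfp932* were lower and *Zfp809* higher in *M*-cKO RNA. *Zfp932*, which acts on endogenous retroviruses, was 13.3, 13.5 and 14.9 FPKM in Ctrl and 9.28, 8.07 and 6.28 FPKM in *M*-cKO (log2 fold change -0.83 ± 0.12, edgeR adjusted p = 0.000606), with overlapping footprints. *Zfp809*, which recognises the primer binding site of murine leukaemia virus, was 2.14, 1.99 and 2.44 FPKM in Ctrl and 3.27, 3.21 and 2.74 FPKM in *M*-cKO, a log2 fold change of 0.48. *Zfp445* had a log2 fold change of -0.26 that was not called, and 0 of the 4 were called in *F*-cKO RNA or in *M*-cKO footprints. The shares of all genes, higher and then lower, were 15.5% and 14.1% for *M*-cKO RNA, 11.5% and 9.57% for *F*-cKO RNA, and 7.13% and 7.5% for *M*-cKO footprints. The call of *Zfp809* was lost without Ctrl RNA library 1 or 2 or *M*-cKO RNA library 1 or 2.

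Of 13 members of general transcription and corepressor complexes, 5 were higher and 0 lower in *F*-cKO RNA, and 4 were higher and 1 lower in *M*-cKO RNA. Their median log2 fold changes were 0.19 and 0.10, beside -0.01 over all genes, of which 11.5% were higher and 9.57% lower in *F*-cKO RNA and 15.5% and 14.1% in *M*-cKO RNA. *Zfp687*, a partner of *Zfp592* and *Zfp532* in a complex with Zmynd8, was 6.09, 6.50 and 5.57 FPKM in Ctrl, 9.35, 8.75 and 8.93 FPKM in *F*-cKO and 8.97, 7.99 and 9.26 FPKM in *M*-cKO. *Zfp217*, a CoREST component, had log2 fold changes of 0.59 in *F*-cKO and 0.48 in *M*-cKO. Those of *Zfp219*, a partner of Sox9, were 0.36 and 0.51. *Zfp148* and *Zfp827* were higher in *F*-cKO and not called in *M*-cKO, *Zfp532* was higher in *M*-cKO by 0.25 and *Zfp263* was lower there by 0.31 on the log2 scale. *Zfp143*, which binds promoters at chromatin loops, *Zfp281*, *Zfp384*, *Zfp410*, known for activating *Chd4*, *Zfp592* and *Zfp644* were not called in either knockout's RNA, and *Zfp281* was higher in *M*-cKO footprints, by 0.58. The count of 5 higher in *F*-cKO RNA was 3 without Ctrl RNA library 3, 3 without *F*-cKO RNA library 2 and 1 without both.

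Among 11 members that act on RNA, ribosomes, ubiquitin or SUMO, 4 were higher and 0 lower in *F*-cKO RNA, 1 was higher and 0 lower in *M*-cKO RNA, and 0 were higher and 1 lower in *M*-cKO footprints. The RNA medians were 0.09 and -0.06, and of all genes 11.5% were higher in *F*-cKO RNA, 15.5% in *M*-cKO RNA and 7.5% lower in *M*-cKO footprints. Those higher in *F*-cKO were *Zfp207*, *Zfp106*, *Zfp91* and *Zfp638*, by 0.20 to 0.29 on the log2 scale, and *Zfp830* was the member higher in *M*-cKO, by 0.32. *Zfp36*, which encodes the mRNA decay factor tristetraprolin, *Zfp598*, a ubiquitin ligase at collided ribosomes, *Zfp622*, a factor of ribosome maturation, *Zfp326* and *Zfp346* were called in neither knockout's RNA, with log2 fold changes between -0.22 and 0.17. The count of 4 in *F*-cKO RNA was 1 and 2 without Ctrl RNA libraries 2 and 3, 2 without *F*-cKO RNA library 2 and 0 without the last and Ctrl library 3 together. The single *M*-cKO call was lost without Ctrl RNA library 3 or *M*-cKO RNA library 2, and the count was 2 without *M*-cKO RNA library 3.

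KRAB corepressor and H3K9 silencing machinery was described by 22 genes that are not Zfp genes. The list is wider than Trim28 and its partners, with *Suv39h1*, *Ehmt1*, *Uhrf1* and *Trim33* among others. In *F*-cKO RNA 16 of 22 were higher and 0 lower, with a median log2 fold change of 0.31, beside a median of -0.01 and 11.5% higher over all genes tested. In *M*-cKO RNA 5 were higher and 1 lower, with a median of 0.06, beside 15.5% and 14.1% of all genes. In footprints 0 of 22 were called in *F*-cKO, with a median of 0.07, beside 0% of all genes, and 1 was higher and 1 lower in *M*-cKO, with a median of 0.01, beside 7.13% and 7.5% of all genes. The count of 16 higher in *F*-cKO RNA was 10 without Ctrl RNA library 3, 11 without *F*-cKO RNA library 2 and 1 without both, with a median of 0.26. *Trim28*, the KRAB corepressor, had a log2 fold change of 0.24 ± 0.06 in *F*-cKO (edgeR adjusted p = 0.0292) and 0.05 ± 0.08 in *M*-cKO (adjusted p = 0.694). *Setdb1*, the H3K9 methyltransferase, had 0.11 ± 0.05 in *F*-cKO (adjusted p = 0.165) and 0.59 ± 0.06 in *M*-cKO RNA (adjusted p = 9.86e-05). In *M*-cKO footprints *Setdb1* had -0.04 ± 0.09 (adjusted p = 0.788), and its TE was lower by 0.56 on the log2 scale (adjusted p = 0.0177). *Cbx5*, which encodes heterochromatin protein HP1 alpha, was higher in *F*-cKO RNA, at 0.39, and lower in *M*-cKO footprints, at -0.43.

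The direction of change in *M*-cKO differed between genomic clusters. RefSeq places 260 of 261 members, and 111 of them lie in 14 clusters of at least 4 members whose starts follow within 500 kb, a definition chosen after the values were seen. The 4 clusters described were also picked after their values were seen, and they stand beside 15.5% higher and 14.1% lower genes in all for *M*-cKO RNA, and 7.13% and 7.5% for its footprints. The largest, chr17:21008941-23599755 in GRCm38.p6, holds 16 members from *Zfp160* to *Zfp13*. In *M*-cKO RNA 7 of its members were lower and 1 higher, with a median log2 fold change of -0.37, and in footprints 5 were lower and 0 higher, with a median of -0.36. The median in *F*-cKO RNA was 0.00, with 0 called, beside 11.5% of all genes higher and 9.57% lower. Against *F*-cKO the *M*-cKO RNA median was -0.36, with 7 lower and 0 higher, beside 14.3% and 13.1% of all genes. That count was 3 without *F*-cKO RNA library 2 or *M*-cKO RNA library 3 and 4 without *F*-cKO RNA library 3 or *M*-cKO RNA library 2, and the median was -0.22 without *M*-cKO RNA library 3. Across leaving out each RNA-seq library in turn, the *M*-cKO median in this cluster lay between -0.45 and -0.25. The footprint median was -0.19 without *M*-cKO Ribo-seq library 2, and the count of 5 footprint calls was 1, 0 and 0 without Ctrl libraries 1 to 3 and 2 and 3 without *M*-cKO libraries 1 and 2. Besides *Zfp946*, the members lower in both assays were *Zfp983*, *Zfp944* and *Zfp40*, and *Zfp213*, near the distal end, was the 1 higher in RNA, at 0.44 (edgeR adjusted p = 0.0444). That call was lost under DESeq2 (adjusted p = 0.0514) and in edgeR with the replicate block (adjusted p = 0.0747). It was also lost without Ctrl RNA library 1 or 3 or *M*-cKO RNA library 1 or 3. Not all neighbours moved: *Zfp51*, *Zfp53*, *Zfp160* and *Zfp760* had RNA log2 fold changes between -0.17 and 0.17.

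On chromosome 6, the cluster at chr6:47815536-48621548 moved the other way. It holds 9 members from *Zfp786* to *Zfp775*, of which 5 were higher and 0 lower in *M*-cKO RNA (beside 15.5% of all genes higher), with a median of 0.36, and 5 were higher and 0 lower in footprints (beside 7.13%), with a median of 0.43. The *F*-cKO RNA median was 0.04. *Zfp777* was 12, 11.1 and 9.69 FPKM in Ctrl, 10.7, 10.9 and 11.1 FPKM in *F*-cKO and 15.9, 15.1 and 16.7 FPKM in *M*-cKO, so Ctrl and *F*-cKO overlapped and *M*-cKO lay above both. *Zfp467*, *Zfp212* and *Zfp746*, the last known as the Parkin substrate PARIS, were also higher in both assays, and *Zfp956* was the 1 member with a log2 fold change below 0 in *M*-cKO RNA, at -0.26, not called. At chr7:127233061-127885996, 10 members from *Zfp553* to *Zfp646* had a median of 0.28 in *M*-cKO RNA, with 5 higher and 0 lower, and at chr13:67038594-67827000, 8 members from *Zfp712* to *Zfp273* had a median of -0.28, with 0 higher and 2 lower. The median on chromosome 13 was -0.09 without *M*-cKO RNA library 3, and 1 member was lower without Ctrl RNA library 3. Without Ctrl Ribo-seq libraries 1 to 3, 1, 0 and 0 members on chromosome 6 were called higher in footprints, and 3 without *M*-cKO library 1.

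**Figure D4:**
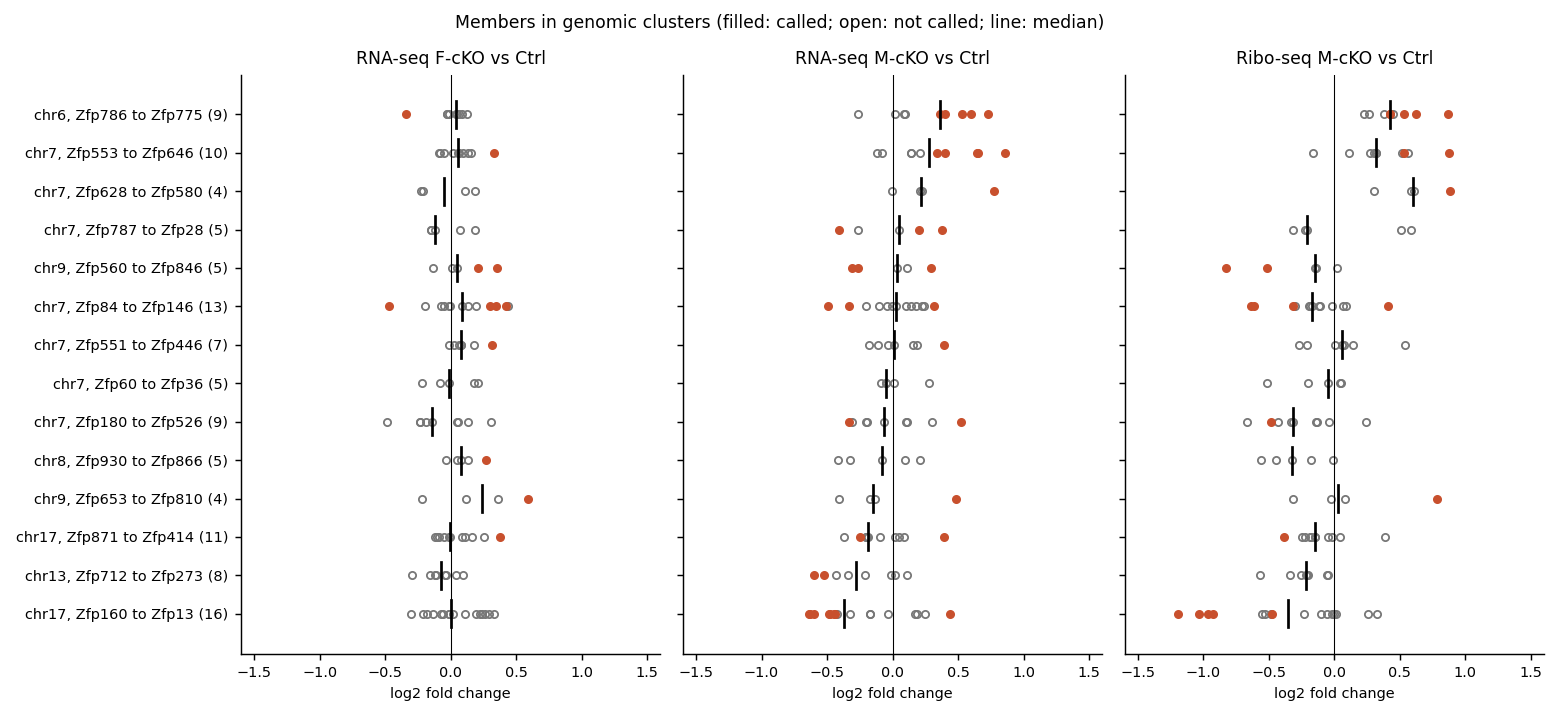
Log2 fold change of the members in each of the 14 genomic clusters, 1 row per cluster with its chromosome, first and last member and number of members, in *F*-cKO RNA, *M*-cKO RNA and *M*-cKO footprints, with called members filled and the median as a line. The 16 members on chromosome 17 have a median of -0.37 in *M*-cKO RNA and 0.00 in *F*-cKO RNA, and the 9 members on chromosome 6 a median of 0.36 and 0.04.

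Promoter composition, which the rule did not use, varied with the direction of change in *M*-cKO against Ctrl. RefSeq promoters were found for 216 of 261 members, and the number of CpG in the 250 bases before the start had a median of 12 over them. It was 16 (quartiles 11 and 21) in the 41 promoters of members higher in *M*-cKO RNA, 12 in the 149 of members not called and 7.5 (quartiles 4.25 and 13.2) in the 26 of members lower. For *M*-cKO footprints the medians were 16.5 in 20 higher, 12 in 176 not called and 9 in 20 lower members. Over all genes tested in *M*-cKO RNA the medians were 18 for higher, 15 for genes not called and 15 for lower, so lower genes in general had the same median as genes not called. Between the knockouts the member medians were 17.5 for higher, 11 for not called and 10.5 for lower in *M*-cKO RNA, and in *F*-cKO RNA they were 13, 12 and 13, so the low value of lower members was not seen in these. The 4 promoters printed above were chosen after their values were seen, among members called in both assays, and others of those members go against this order: *Zfp710* and *Zfp219*, higher in both, hold 2 and 8 CpG, and *Zfp560* and *Zfp944*, lower in both, hold 19 and 17. Clustered members with related promoters are not independent, so no test was made.

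**Figure D5:**
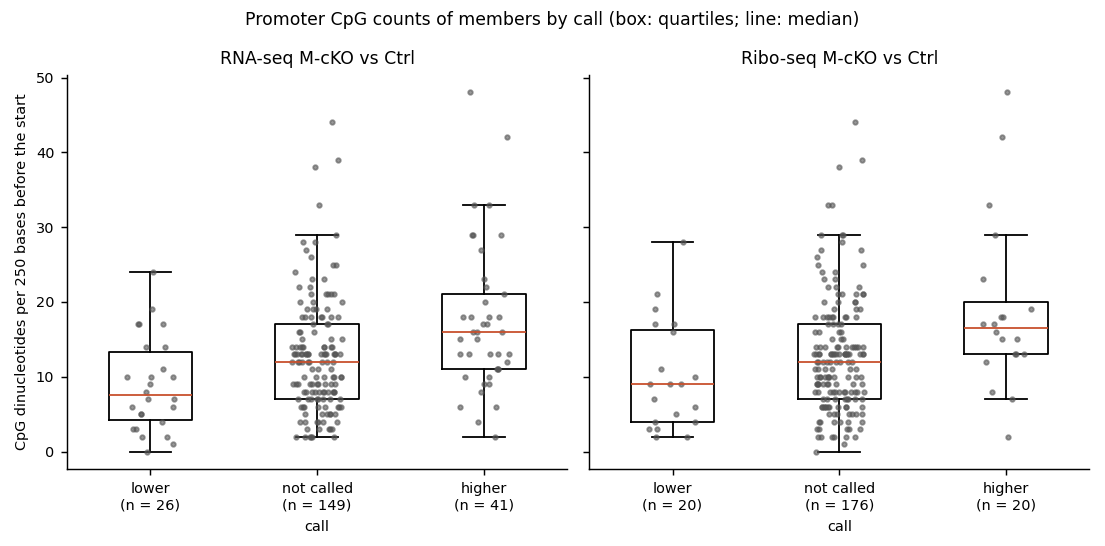
Number of CpG in the 250 bases before the start for the 216 members with a RefSeq promoter, by call in *M*-cKO RNA (left) and footprints (right), with boxes for the quartiles, a line for the median, whiskers to the farthest value within 1.5 times the box and 1 point per promoter. The median rises from 7.5 in lower to 16 in higher members in RNA, with wide overlap.

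A search for 3 motifs on both strands of these windows gave descriptions only. The GC box (GGGCGG) was in 51.2% of promoters of members higher in *M*-cKO RNA, 45.0% of those not called and 30.8% of those lower, beside 32.9% of all 27025 promoters in the table. Among all genes tested in *M*-cKO RNA it was in 63.8% of promoters of genes higher, 58.0% of those not called and 55.3% of those lower, so the shares of members were below those of tested genes in each class. In *M*-cKO footprints the GC box was in 35% of higher, 47.7% of not called and 25% of lower members, which is not the order seen in RNA. The CCAAT box (CCAAT) was in 41.5%, 48.3% and 50.0%, beside 34.5% of all promoters and 35.9%, 36.4% and 33.7% among tested genes, and in 20%, 50.6% and 45% by call in footprints. The TATA box (TATAAA) was in 7.32%, 5.37% and 3.85%, beside 13% of all promoters and 5.83%, 6.48% and 6.55% among tested genes, and in 10%, 5.11% and 5% by call in footprints. The 3 motifs share no letters by which 1 match implies another.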

How the data were processed

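RNA-seq and Ribo-seq of E15.5 cortex were analysed in 3 groups, with 3 libraries per group and assay. The authors aligned RNA-seq reads with HISAT2 2.0.5, as the submitters' processing notes and the paper's methods give it, and the deposited RNA-seq counts per gene came from a tool not given in the sources used here. The authors trimmed Ribo-seq reads, mapped them with TopHat2 and deposited counts per gene made with HTSeq. The FPKM (RNA-seq) and RPKM (Ribo-seq) values were computed by the authors from these reads, by gene length and depth, and were printed as deposited. The processing notes name build mm10 and also DESeq2 1.14.1. The RNA-seq tables hold 315 loci without an Ensembl identifier, and 40490 of 54838 genes of the Ribo-seq count table have blanks in 8 of 9 libraries and were left out, with 0 members among them. Columns not mapped to a sample numbered 0.

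Members and gene lists were chosen with earlier results of these data known. Symbols, positions and promoters came from RefSeq (GRCm38.p6), and no protein sequences were used. Counts were tested in R 4.3.3 with edgeR 4.0.16: filterByExpr (minimum count 10, minimum total 15), TMM scaling, and the quasi-likelihood test over the 6 libraries of each comparison. For TE, the term tested was assay by genotype, in 12 libraries scaled together by TMM. Benjamini-Hochberg adjustment covered every gene tested, and calls had an adjusted p below 0.05. The same tests were also run on simulated counts with known changes, whose outcome is not given here. Alternatives were DESeq2 1.42.0, RLE scaling, no filter, a fit of all libraries, a replicate block, each library left out, other member limits and, added after seeing the data, TMM within each assay, 2 libraries left out together and, for TE in *M*-cKO, a block for each pair of RNA and Ribo libraries with 1 genotype and number. The labels do not say that such libraries share a sample. Their deviations from the group means correlated at 0.172, 0.265 and 0.110 in Ctrl and 0.328, 0.103 and 0.190 in *M*-cKO, above 0.1 in every pair, but at -0.0186, -0.0469 and -0.276 in *F*-cKO, where no such block was used.

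Genes were named by a rule: per comparison and direction the 8 called members with the smallest p (where none was called, the 3 with the smallest p), the 6 most abundant members, 3 on each side of the limit, members of the role lists, those called in both assays in *M*-cKO and those called for TE. Members of clusters and the extremes of TE were named after their values were seen.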

Additional observations from a re-analysis of the deposited data

Results flagged for a closer look

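The effect of *Mettl3* deletion differed between RNA and footprints for 11 members, by the test of the interaction of assay and genotype (edgeR, adjusted p from 0.0111 to 0.046). The 5 above 0 are 1.92% of members, beside 1.89% of all genes tested, and the 6 below 0 are 2.30%, beside 1.18%. The log2 change of footprints relative to RNA was 1.02 for *Zfp653*, 0.91 for *Zfp408*, 0.87 for *Zfp948*, 0.85 for *Zfp692* and 0.81 for *Zfp57*. It was -1.04 for *Zfp770*, -0.92 for *Zfp90*, -0.90 for *Zfp41*, -0.56 for *Zfp146*, -0.53 for *Zfp451* and -0.48 for *Zfp251*. With single libraries left out, the calls of *Zfp653*, *Zfp408*, *Zfp57* and *Zfp770* were kept each time, *Zfp146* lost its call in 2 of 12 fits, *Zfp41* in 5, *Zfp90* and *Zfp451* in 6, *Zfp948* in 8, *Zfp692* in 9 and *Zfp251* in 10.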

How the results depend on the processing

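Of 136 values of named genes, 73 kept direction and call under all alternatives run, and 0 changed direction. The 136 include values that were not called, which had no call to lose. No footprint or TE call in *M*-cKO is among the 73, since the fit of all libraries kept none of them. RLE scaling, DESeq2 and TMM within each assay moved no count of calls past 1.5 times except as follows, and the causes were not tested. DESeq2 gave 10 higher and 12 lower members for TE in *M*-cKO against Ctrl, 1 lower for TE in *F*-cKO, 1 higher for TE and 4 higher in Ribo-seq between the knockouts. Without the filter, 10 members were lower in *F*-cKO RNA. The fit of all libraries gave 0 higher and 0 lower members in *M*-cKO Ribo-seq, beside 0.202% and 0.0419% of all genes. It gave 0 higher and 0 lower for TE in *M*-cKO, beside 0.0603% and 0.0226%. Members with at least 5 FPKM gave 18 lower in *M*-cKO RNA and 31 lower between the knockouts, since fewer members (164) were counted. Without *F*-cKO RNA library 2 and Ctrl RNA library 3 together, 7 members were higher and 0 lower in *F*-cKO RNA. Leaving out 1 library at a time gave 22 to 47 higher and 1 to 7 lower in *F*-cKO RNA, 45 to 59 higher and 19 to 33 lower in *M*-cKO RNA, 27 to 36 higher and 23 to 51 lower between the knockouts in RNA, 1 to 25 higher and 1 to 23 lower in *M*-cKO Ribo-seq, and 3 to 9 higher and 1 to 13 lower for TE in *M*-cKO.

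Within 1 assay, same-numbered libraries of different groups did not deviate together in every pair (correlations from -0.278 to 0.163), and the main fits used no block by number. The labels do not say whether the numbers pair libraries, and with 3 libraries per group these correlations cannot exclude it. With the replicate block, 3 members were lower in *F*-cKO RNA and 10 were lower in *M*-cKO Ribo-seq, and no other count moved past 1.5 times. The block that pairs RNA and Ribo libraries changed 1 of 11 calls for TE in *M*-cKO, that of *Zfp251*. The shallowest Ribo-seq library has 10973699 counts, with 5 on the lowest member, and the part of depth in the results was not tested.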
